A study of Gallus gallus with 12 samples.

Results

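The genes described here encode the nuclear part of the oxidative phosphorylation system, complex by complex, in chicken primordial germ cells and 3 kinds of comparison cells. A gene was taken when its symbol in the array's annotation began with NDUF, SDHA to SDHD, UQCR, COX4 to COX8, CYC1, CYCS or ATP5. This gave 79 of the 13008 genes with a symbol on the array, each read from the probe set that had its highest mean over 12 arrays. They comprised 33 subunits of complex I, 2 of complex II, 8 of complex III, 8 of complex IV, 13 of complex V, cytochrome c (CYCS) and 14 assembly factors. No probe set carried 1 symbol for CYC1, for the isoforms COX4I2, COX6A2, COX7A1, COX8C or NDUFA4L2, or for any subunit encoded in mitochondrial DNA. The gene COX7A2 shares its only matching probe set with another gene and was not used.

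Oxidative phosphorylation takes place in the inner mitochondrial membrane. Complex I (NADH dehydrogenase) and complex II (succinate dehydrogenase) pass electrons to ubiquinone, complex III passes them on to cytochrome c, and complex IV (cytochrome c oxidase) passes them to oxygen. Complexes I, III and IV pump protons as they do so, and complex V (ATP synthase) uses the return of the protons to make ATP. The catalytic cores are joined by many accessory subunits. Assembly factors help to put each complex together, and most do not stay in it. The class used here also holds COX7A2L, which joins complexes III and IV in mouse, and ATP5S, a coupling factor of ATP synthase.

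Transcripts were measured in 12 samples of total RNA from White Leghorn embryos, 1 Affymetrix chicken array per sample, in 4 groups of 3. Primordial germ cells (PGC), the precursors of sperm and eggs, and gonadal stromal cells (GSC) were obtained by magnetic sorting from the gonads of embryos of 6.5 days, with both sexes mixed and 100 embryos pooled per sample. A PGC sample held 270000 cells and a GSC sample 9000000. Chicken embryonic fibroblasts (CEF) came from 5 embryos of 6.5 days per sample and were cultured in serum to passage 2, with 6000000 cells per sample. The study design gives the embryonic body as their source and the sample labels give the muscular area. Blastoderm samples held 530000 dissociated cells from 5 freshly laid eggs at stage X, before gastrulation. The labels name no transgene or treatment. Blastoderm alone was of an earlier age and neither sorted nor cultured, both gonadal groups were sorted, and CEF alone were cultured. Cell type, age, sort and culture therefore cannot be told apart.

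All 8 germ cell markers had their highest mean in PGC, all 8 gonadal somatic markers in GSC and 9 of 10 fibroblast and matrix markers in CEF. No marker list was set for blastoderm. The median of 8 germ cell markers was 8.34 to 9.13 on the log2 scale in PGC and 4.47 to 4.69 in GSC, and all were above background in PGC. Background was set at 3.61, which 99% of the viral and reporter probe sets do not exceed. In PGC the median of 8 gonadal somatic markers was 4.31, 4.87 and 6.38 in replicates 1, 2 and 3, against 6.88 to 7.14 in GSC. PGC also carried 7 of 7 markers of kidney and mesonephros epithelium above background, with a median of 7.44 to 8.44 against 4.41 to 5.07 in GSC. Erythroid markers had a median of 10.5 to 11.73 in PGC and 11.57 to 12.58 in GSC, and of 3.45 to 4.44 in CEF and blastoderm. Endothelial markers had a median of 4.23 to 5.81 in PGC, 6.32 to 6.86 in GSC and 2.27 to 2.85 in CEF and blastoderm. Fibroblast and matrix markers had one of 8.33 to 10.49 in the gonadal groups, 11.33 to 11.72 in CEF and 3.41 to 3.69 in blastoderm. All 5 leukocyte markers were above background in CEF, with a median of 5.86 to 7.07, and in GSC, with one of 5.1 to 5.21. In PGC 4 of the 5 were (median 4.64 to 5.41) and in blastoderm 3 (4.25 to 4.53). The median of 9 striated muscle markers was at or below background on all 12 arrays. Of the 9, 4 were above background in CEF, 3 in PGC, 3 in blastoderm and 1 in GSC. How much these cells contributed to the values below was not tested, and in such bulk samples fewer cells of a type cannot be told apart from less RNA per cell.

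Of the 79 genes, 77 were above background in at least 1 group and 74 in all 4 groups, NDUFS5 and COX7B being above it in none. Levels differed among the 4 groups for 71 of them, or 89.9%, by limma's moderated F test at an adjusted p below 0.05, against 74.2% of all genes. The group with the highest mean was PGC for 58 of the 79 genes (73.4%, against 20.4% of all genes). The lowest mean was in blastoderm for 39 (49.4%, against 25.9% of all genes). It was in CEF for 26 (32.9%), near the 28.3% of all genes. Among the 7918 genes above background in all 4 groups, PGC had the highest mean for 21.9%.

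The shift was visible on single arrays. With each gene set to its own mean over the 12 arrays, the median of the 79 genes was 0.36, 0.36 and 0.41 (log2) above it in the 3 PGC samples and 0.23, 0.13 and 0.01 in the GSC samples. In the CEF samples it was -0.13, -0.19 and -0.18, and in the blastoderm samples -0.34, -0.15 and -0.33. The PGC samples lay above all others and the GSC samples above CEF and blastoderm, while the CEF and blastoderm samples overlapped. The median of all 13008 genes stayed between -0.05 and 0.02 on every array. GSC samples were the most spread: their medians deviated from the group by 0.14, -0.02 and -0.11 for the 79 genes, against 0.02, 0.00 and -0.02 for all genes.

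**Figure D1:**
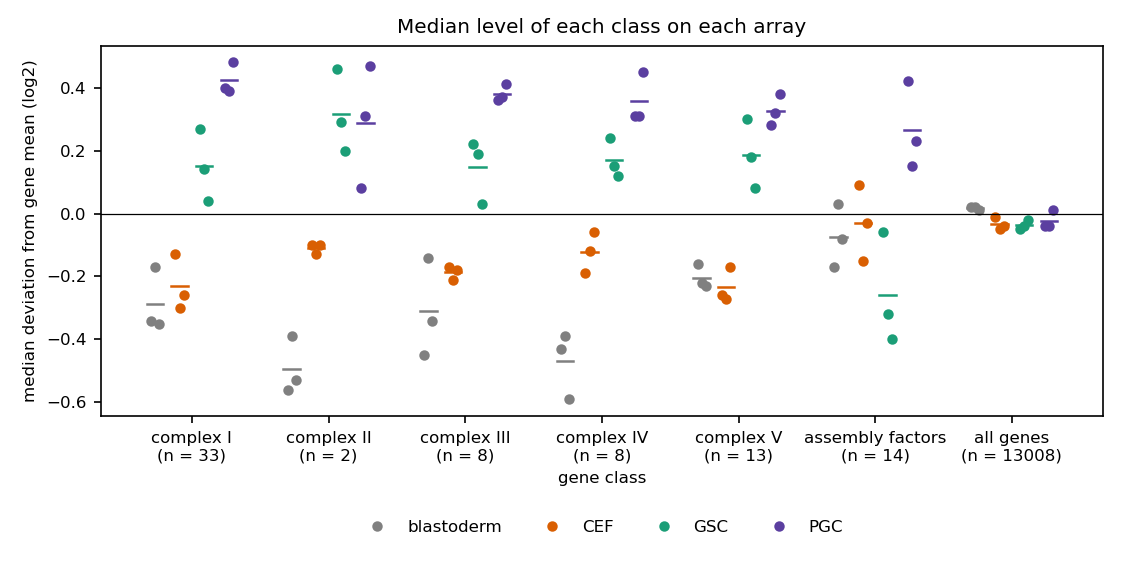
Median deviation (log2) of each class of genes from the genes' own means over 12 arrays, 1 point per array and a bar at the group mean of 3 arrays, with all genes at the right. Complexes I, III, IV and V show PGC at the top and blastoderm or CEF at the bottom, whereas the assembly factors have GSC lowest, at -0.06, -0.32 and -0.40.

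Counts of called genes followed this order. A gene was called when its adjusted p in limma's two-sided test was below 0.05, with adjustment over all 37693 probe sets of a comparison. Against blastoderm, 56 of the 79 genes were higher in PGC and 4 were lower, where 26.2% and 23.5% of all genes were called higher and lower. The median log2 fold was 0.69 for the 79 genes and -0.07 for all genes. Against CEF, 52 were higher in PGC and 1 was lower, with 27.7% and 22.0% of all genes, and the median log2 fold was 0.57.

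PGC and GSC, both sorted from gonads of embryos of 6.5 days, were closer. In PGC 23 genes were higher than in GSC and 1 was lower, against 16.8% and 13.4% of all genes, with a median log2 fold of 0.24. This count rested on single arrays: it was 9 higher without GSC replicate 2, 7 without GSC replicate 3, 11 without PGC replicate 1 and 13 without PGC replicate 2, each with none lower. Without PGC replicate 3, the PGC sample with the most gonadal somatic signal, 19 were higher and 2 lower.

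GSC in turn exceeded the groups from outside the gonad. Compared with CEF, 34 genes were higher in GSC and 3 lower, against 22.3% and 20.2% of all genes, with a median log2 fold of 0.30. Centring each array on its median, which moved the median fold of all genes to -0.11 in that comparison, left 22 higher and 5 lower, and without GSC replicate 1 there were 21 higher and 7 lower. Compared with blastoderm, 40 were higher in GSC and 9 lower, against 24.8% and 25.4% of all genes, with a median log2 fold of 0.44. The 9 lower became 4 without GSC replicate 2 and 5 without GSC replicate 3 or any 1 blastoderm replicate. CEF and blastoderm differed in both directions. In CEF 24 genes were higher than in blastoderm and 13 lower, against 24.0% and 27.2% of all genes, and the median log2 fold was 0.08. The 6 comparisons share samples pairwise, so their counts are not independent of each other.

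**Figure D2:**
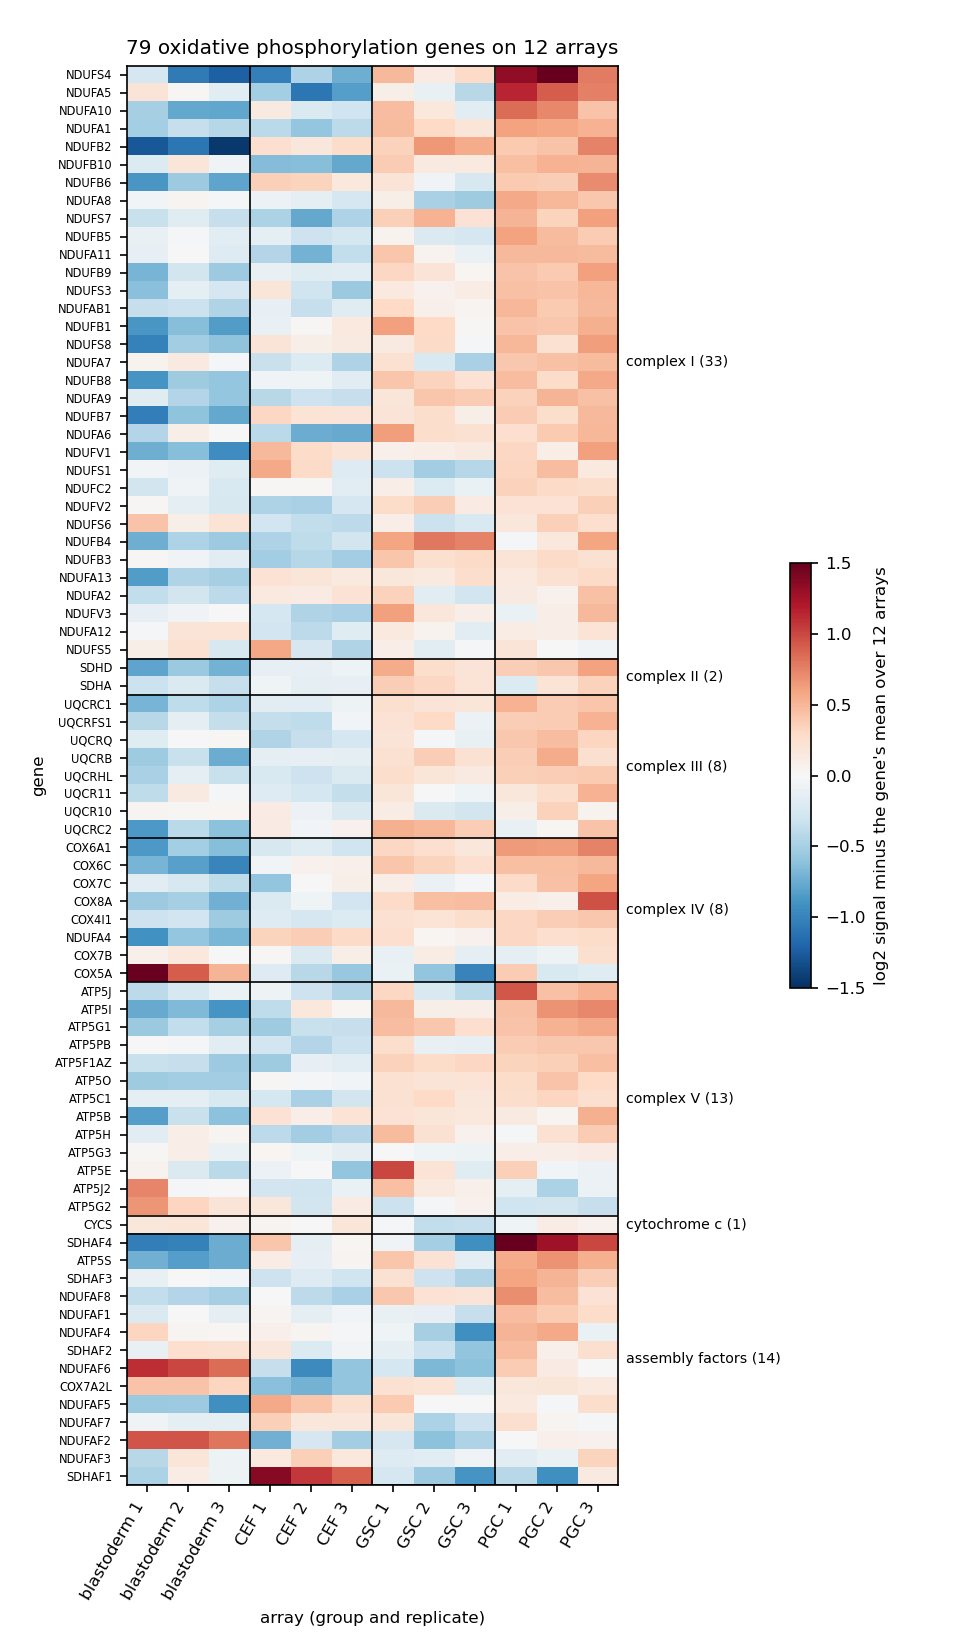
Log2 signal of the 79 genes on the 12 arrays, each gene set to its own mean over the arrays (colour scale from -1.5 to 1.5, darker values cut at the ends), ordered by class and, within a class, by the mean in PGC. PGC columns are red for most rows of complexes I to V, blastoderm columns are blue for most, and COX5A, NDUFAF2 and NDUFAF6 run the other way.

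Complex I is the entry point for electrons from NADH. In PGC 27 of its 33 genes (81.8%) were higher than in blastoderm and 24 (72.7%) were higher than in CEF, with none lower in either comparison. Of all genes, 26.2% were higher and 23.5% lower in PGC than in blastoderm, and 27.7% and 22.0% than in CEF. The mean was highest in PGC for 30 of the 33. The 15 subunits of the matrix arm, which takes up NADH, had a median log2 fold of 0.56 over blastoderm. For the 17 of the membrane arm, which holds the proton pumps, it was 0.83. NDUFAB1, the acyl carrier protein, sits in both arms and was higher in PGC than in each other group, by at least 1.25-fold. At least 1 of these calls was lost without CEF replicate 3, GSC replicate 2 or 3, any PGC replicate, or blastoderm replicate 2 or 3. In CEF 3 of 15 matrix arm genes were higher than in blastoderm and 4 lower, shares near the 24.0% and 27.2% of all genes, and 8 membrane arm genes were higher and 3 lower. The difference between the arms was not tested.

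NDUFS4, an accessory subunit of the matrix arm in which mutations cause Leigh syndrome in humans, showed the largest fold of the complex. Its log2 signal was 7.32, 7.74 and 6.77 in PGC, 6.48, 6.12 and 6.28 in GSC, 4.97, 5.53 and 5.26 in CEF, against 5.74, 4.93 and 4.77 in blastoderm. The PGC samples lay above all others and the GSC samples above CEF and blastoderm, which overlapped. NDUFS4 was 4.38-fold higher in PGC than in blastoderm (log2 fold 2.13 ± 0.28 SE, limma adjusted p = 1.32e-05) and 4.07-fold higher than in CEF. Over GSC the difference was 1.98-fold (adjusted p = 0.0179), and that call was lost with either GSC replicate 2 or 3, or either PGC replicate 1 or 2, left out and with the mean over its probe sets.

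NDUFA5, another matrix arm subunit, was higher in PGC than in each other group as well. It read 8.41, 8.17 and 8.02 in PGC, 7.35, 7.16 and 6.85 in GSC, 6.76, 6.18 and 6.44 in CEF, against 7.46, 7.28 and 7.11 in blastoderm. Here blastoderm and GSC overlapped and CEF was lowest. The log2 fold of PGC was 1.74 ± 0.20 SE over CEF (limma adjusted p = 2.8e-06), 1.08 ± 0.20 over GSC (adjusted p = 0.000922) and 0.92 ± 0.20 over blastoderm (adjusted p = 0.00148).

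In the membrane arm, NDUFB2 set blastoderm apart from all other cells. Its values were 7.07, 7.26 and 6.90 in blastoderm against 8.60, 8.51 and 8.62 in CEF, 8.69, 9.00 and 8.90 in GSC, and 8.74, 8.77 and 9.09 in PGC. All 9 other samples lay above the 3 blastoderm samples. NDUFB2 was 3.45-fold higher in PGC, 3.44-fold higher in GSC and 2.83-fold higher in CEF than in blastoderm (limma adjusted p = 1.21e-07, 1.03e-07 and 5.4e-07). NDUFB7 was likewise lower in blastoderm than in each other group, by at least 1.97-fold. So were the core subunits NDUFV1, which binds NADH, and NDUFS8, which carries iron-sulfur clusters, by at least 1.82-fold and 1.80-fold.

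NDUFB4 was the member called lower in PGC than in GSC. It read 10.29, 10.49 and 10.44 in GSC, 9.68, 9.86 and 10.29 in PGC, 9.23, 9.31 and 9.42 in CEF, against 8.97, 9.23 and 9.15 in blastoderm. GSC replicate 1 and PGC replicate 3 were equal to the printed digits, as were CEF replicate 1 and blastoderm replicate 2, and the other samples lay in the order GSC, PGC, CEF and blastoderm. It was 2.44-fold higher in GSC than in blastoderm (limma adjusted p = 1.54e-06) and 1.38-fold higher than in PGC (adjusted p = 0.0262). The second of these calls was lost under 7 of 23 alternatives, among them each of GSC replicates 2 and 3 and PGC replicates 1 and 2 left out. NDUFS1, the largest core subunit, was lower in GSC than in PGC (log2 fold of PGC over GSC 0.73 ± 0.16 SE, limma adjusted p = 0.00374) and than in CEF (log2 fold of GSC over CEF -0.64 ± 0.16 SE, adjusted p = 0.00593).

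**Figure D3:**
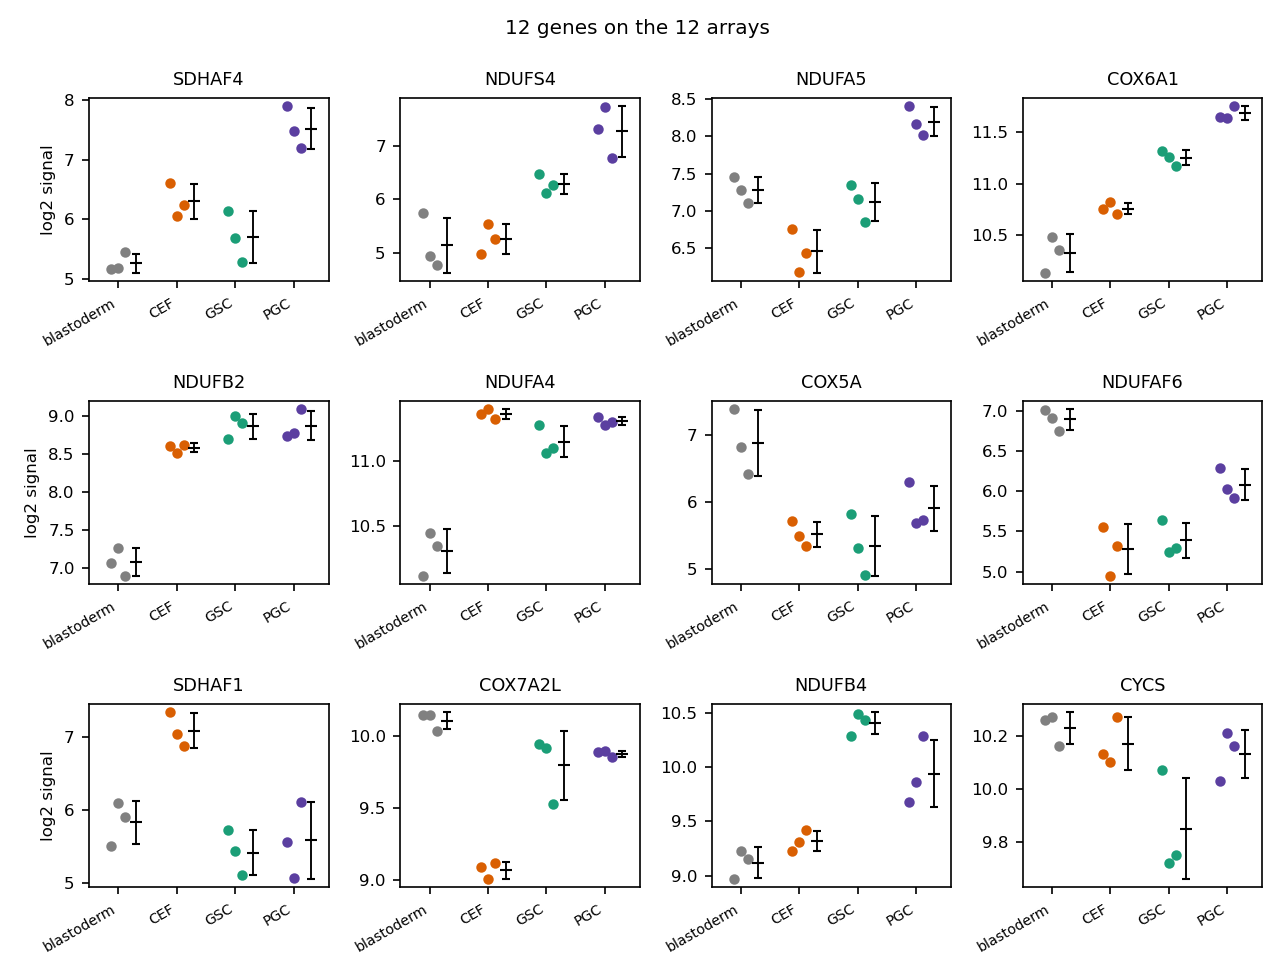
Log2 signal of 12 genes on the 12 arrays, 1 coloured point per array and the group mean ± SD (n = 3) in black, with a separate vertical scale for each gene. SDHAF4, NDUFS4, NDUFA5 and COX6A1 are highest in PGC, NDUFB2 and NDUFA4 are low in blastoderm alone, COX5A and NDUFAF6 are highest in blastoderm, and SDHAF1 is highest in CEF.

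Complex II, which also works in the citric acid cycle, was represented by SDHA, the flavoprotein that oxidises succinate, and SDHD, a membrane anchor. Both were higher in PGC and in GSC than in blastoderm, and neither differed between PGC and GSC beyond the threshold. SDHD read 9.25, 9.28 and 9.48 in PGC, 9.43, 9.14 and 9.07 in GSC, 8.75, 8.76 and 8.80 in CEF, against 8.09, 8.32 and 8.17 in blastoderm. The gonadal groups overlapped, CEF lay below them and blastoderm lowest. Its log2 fold over blastoderm was 1.14 ± 0.13 SE in PGC (limma adjusted p = 4.06e-06), 1.02 ± 0.13 in GSC and 0.58 ± 0.13 in CEF. SDHA was less different, at 9.27, 9.69 and 9.82 in PGC, 9.85, 9.79 and 9.69 in GSC, 9.41, 9.33 and 9.36 in CEF, against 9.16, 9.26 and 9.13 in blastoderm. PGC replicate 1 lay below all CEF samples and next to the highest blastoderm sample, and the log2 fold of PGC over blastoderm was 0.41 ± 0.13 SE (adjusted p = 0.0215). That call was lost without PGC replicate 2 or 3 or without blastoderm replicate 1 or 3.

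In complex III 7 of 8 genes were higher in PGC than in blastoderm and 6 were higher than in CEF, beside 26.2% and 27.7% of all genes. None was lower in any of the 6 comparisons. The exception against both blastoderm and CEF was UQCR10, a small subunit that was called in no comparison. UQCRC2, a core protein of the matrix side, was the other gene not called between PGC and CEF (log2 fold 0.07). It had its highest mean in GSC, where it was 2.13-fold higher than in blastoderm (limma adjusted p = 1.94e-05). UQCRC1, its partner, read 10.37, 10.22 and 10.26 in PGC, 10.08, 10.04 and 10.03 in GSC, 9.69, 9.68 and 9.77 in CEF, against 9.15, 9.46 and 9.38 in blastoderm. The 4 groups did not overlap, in the order PGC, GSC, CEF and blastoderm. Of the steps in that order, PGC over GSC (log2 fold 0.24 ± 0.11 SE, adjusted p = 0.133) did not pass the test, and GSC over CEF lost its call in 5 of 23 alternatives. UQCRQ was the 1 gene of complex III that was higher in PGC than in GSC (1.30-fold, limma adjusted p = 0.028), and that call was lost in 5 of 23 alternatives, those without GSC replicate 2 or 3 or PGC replicate 1 or 2 among them.

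Complex IV reduces oxygen to water. In PGC 6 of its 8 nuclear genes were higher than in blastoderm and 1 was lower, beside 26.2% and 23.5% of all genes. Against CEF 5 were higher with none lower, beside 27.7% and 22.0%. COX6A1, the widely expressed form of subunit VIa, read 11.64, 11.63 and 11.75 in PGC, 11.31, 11.26 and 11.17 in GSC, 10.76, 10.82 and 10.71 in CEF, against 10.14, 10.49 and 10.36 in blastoderm. Its 4 groups were fully separated, in the same order as those of UQCRC1, and all 6 comparisons were called. PGC exceeded blastoderm 2.54-fold (limma adjusted p = 9.71e-09), CEF 1.88-fold and GSC 1.35-fold (adjusted p = 0.00271). With the mean over its probe sets, the calls of PGC over CEF and over GSC, of GSC over CEF and of CEF over blastoderm were lost. COX4I1, the widely expressed form of subunit IV, was higher in PGC and GSC than in CEF and blastoderm, with log2 folds of 0.45 to 0.74, and PGC and GSC were not called apart (0.13).

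COX5A, which binds a thyroid hormone in mammals, ran against the complex. Its log2 signal was 7.39, 6.82 and 6.42 in blastoderm, 6.29, 5.68 and 5.73 in PGC, 5.81, 5.31 and 4.90 in GSC, and 5.71, 5.49 and 5.34 in CEF. All 3 blastoderm samples were above every other sample, and the other groups overlapped. COX5A was 1.96-fold higher in blastoderm than in PGC (limma adjusted p = 0.0106), 2.90-fold higher than in GSC and 2.57-fold higher than in CEF. The first of these was lost without blastoderm replicate 1, and the calls against PGC and CEF were lost with the mean over its probe sets. A further COX5A probe set near background (mean 3.13) went the other way in CEF against blastoderm, with a log2 fold of 0.77 (limma adjusted p = 0.00423).

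NDUFA4, once counted with complex I and now with complex IV, resembled NDUFB2. It was 10.12, 10.45 and 10.35 in blastoderm and between 11.06 and 11.40 on the other 9 arrays, which put it 2.00-fold higher in PGC (limma adjusted p = 2.65e-07), 1.79-fold higher in GSC and 2.08-fold higher in CEF. COX6C was also lower in blastoderm than in each other group, by at least 1.83-fold. COX8A read 9.41, 9.38 and 10.25 in PGC, so that PGC replicate 3 alone lay above GSC (9.59, 9.75 and 9.76). COX8A was higher in PGC than in CEF (1.48-fold, limma adjusted p = 0.0215), but not without PGC replicate 3 or either of CEF replicates 1 and 3.

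For complex V 8 of 13 genes were higher in PGC than in blastoderm and 1 was lower, beside 26.2% and 23.5% of all genes. Against CEF 8 were higher with none lower, beside 27.7% and 22.0%. The F1 head, where ATP is made, contributed 4 genes. Its catalytic beta subunit ATP5B read 9.67, 10.16 and 9.88 in blastoderm, 10.71, 10.60 and 10.70 in CEF, 10.71, 10.68 and 10.65 in GSC, and 10.63, 10.54 and 11.03 in PGC. CEF, GSC and PGC overlapped and blastoderm was lower, by 1.77-fold against PGC (limma adjusted p = 9.09e-05), 1.71-fold against GSC and 1.70-fold against CEF. The alpha subunit ATP5F1AZ, the Z-linked copy, instead separated the gonadal groups from both others: PGC was higher than CEF by 0.66 and than blastoderm by 0.79 (log2), and GSC by 0.58 and 0.72.

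ATP5I, a small subunit of the membrane part that takes part in pairing ATP synthases, had the largest fold of the complex in PGC over blastoderm. It was 11.16, 11.40 and 11.44 in PGC, 11.21, 10.81 and 10.83 in GSC, 10.34, 10.88 and 10.76 in CEF, against 9.97, 10.06 and 9.84 in blastoderm. The log2 fold of PGC over blastoderm was 1.38 ± 0.14 SE (limma adjusted p = 7.19e-07). PGC and GSC overlapped.

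The c subunit, whose ring turns with the protons, is encoded by 3 genes that yield the same mature protein, and these did not move together. ATP5G1 read 10.35, 10.44 and 10.48 in PGC, 10.38, 10.32 and 10.17 in GSC, 9.38, 9.58 and 9.57 in CEF, against 9.36, 9.55 and 9.42 in blastoderm. All 6 gonadal samples were above the 6 others, with log2 folds of 0.98 ± 0.11 SE in PGC over blastoderm (limma adjusted p = 1.57e-06) and 0.78 ± 0.11 in GSC over CEF (adjusted p = 2.28e-05). The calls of PGC and of GSC over CEF were lost with the mean over its probe sets. ATP5G3 lay between 11.37 and 11.64 on all 12 arrays and was called in none of the 6 comparisons. ATP5G2 was near background, at 4.10, 3.76 and 3.63 in blastoderm and below 3.61 on all PGC and GSC arrays. It was thus at least 1.16-fold higher in blastoderm than in PGC (limma adjusted p = 0.00692).

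ATP5J, a stalk subunit, was also near background, at 4.10, 3.61 and 3.69 in PGC and below background on all 9 other arrays. Signals below background give a bound, by which it was at least 1.14-fold higher in PGC than in each other group. The call over GSC was lost without GSC replicate 2 or 3 or PGC replicate 1. ATP5H, another stalk subunit, was lower in CEF than in each other group, by at least 1.37-fold.

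**Figure D4:**
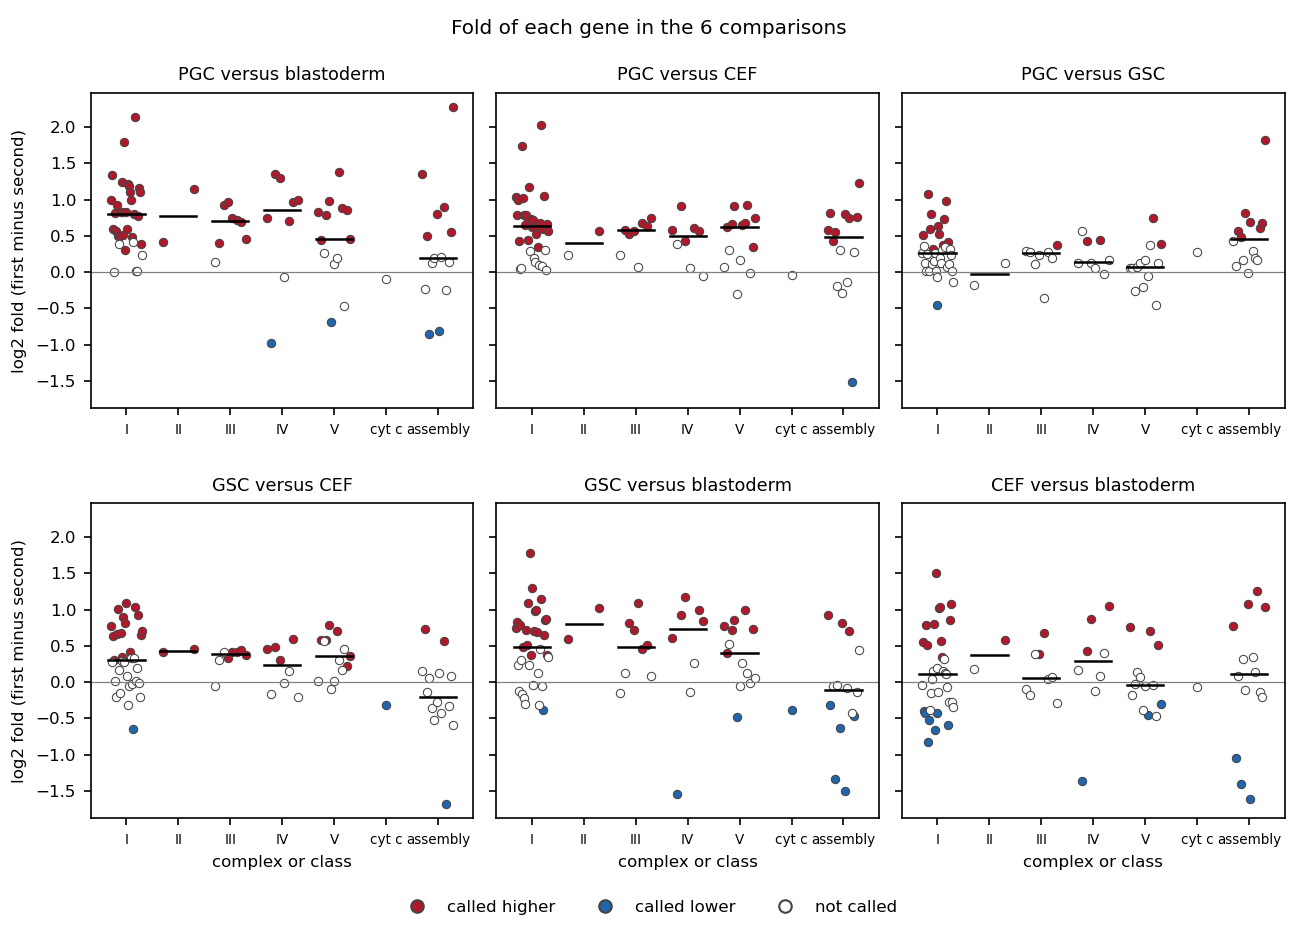
Log2 fold of each of the 79 genes in the 6 comparisons, by complex (I to V), cytochrome c (cyt c) and assembly factors, with the class median as a bar and called genes filled. In PGC against blastoderm and against CEF the medians of the 5 complexes lie above 0, in CEF against blastoderm the genes of most complexes straddle it, and the assembly factors spread from -1.68 to 2.27 over the comparisons.

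Cytochrome c, the mobile carrier between complexes III and IV that also triggers apoptosis when released, did not follow the complexes it serves. CYCS read 10.03, 10.21 and 10.16 in PGC, 10.07, 9.72 and 9.75 in GSC, 10.13, 10.10 and 10.27 in CEF, against 10.26, 10.27 and 10.16 in blastoderm. PGC, CEF and blastoderm overlapped, and GSC replicates 2 and 3 were the lowest. GSC was lower than blastoderm (log2 fold -0.38 ± 0.11 SE, limma adjusted p = 0.011) and than CEF (-0.32 ± 0.11 SE, adjusted p = 0.0346). Both calls were lost without GSC replicate 2, the first also with the mean over probe sets and the second also without GSC replicate 3 or CEF replicate 1 or 3.

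None of the 14 assembly factors had its highest mean in GSC, against 18.8% of all genes. The lowest mean was in GSC for 6 of the 14 and for 6 of the 65 subunits and cytochrome c. Among all genes it was there for 21.1%. In PGC 7 of the 14 were higher than in GSC and none lower, against 16.8% and 13.4% of all genes. The count of 7 ranged from 2 to 8 with each array left out in turn. In GSC 3 of the 14, or 21.4%, were higher than in blastoderm and 5, or 35.7%, were lower, not far from the 24.8% and 25.4% of all genes. For the subunits and cytochrome c the counts were 37 of 65 higher and 4 lower, and the difference between the classes was not tested.

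SDHAF4, which helps SDHA into complex II, had the largest fold of all 79 genes. Its log2 signal was 7.90, 7.47 and 7.20 in PGC, 6.14, 5.69 and 5.28 in GSC, 6.61, 6.05 and 6.23 in CEF, against 5.16, 5.18 and 5.45 in blastoderm. The PGC samples stood above all others, while GSC overlapped both CEF and blastoderm. PGC exceeded blastoderm 4.81-fold (log2 fold 2.27 ± 0.25 SE, limma adjusted p = 1.83e-06), GSC 3.53-fold (adjusted p = 6.81e-05) and CEF 2.34-fold (adjusted p = 0.000832), under every alternative tried for these 3 comparisons. SDHAF3 was also higher in PGC than in each other group, by at least 1.46-fold. Unlike those of SDHAF4, at least 1 of its calls was lost without GSC replicate 2 or 3, PGC replicate 1 or 2, or any blastoderm replicate.

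SDHAF1, which serves the iron-sulfur subunit of complex II, was instead highest in CEF. It read 7.35, 7.04 and 6.88 in CEF, 5.56, 5.06 and 6.11 in PGC, 5.72, 5.43 and 5.10 in GSC, and 5.51, 6.09 and 5.90 in blastoderm. The CEF samples lay above all 9 others, which overlapped. CEF exceeded GSC 3.20-fold (limma adjusted p = 0.000106), PGC 2.86-fold (adjusted p = 0.00024) and blastoderm 2.39-fold (adjusted p = 0.00101). SDHAF2, which attaches the flavin to SDHA, was higher in PGC than in GSC by 0.61 on the log2 scale. That call was lost with at least 1 array left out, where SDHAF4 and NDUFAF1 were the only 2 assembly factors still called higher.

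Among 8 factors for complex I, NDUFAF6 and NDUFAF2 were highest in blastoderm, where 17 of the 33 subunits of that complex had their lowest mean. NDUFAF6 read 7.01, 6.91 and 6.75 in blastoderm, 6.29, 6.03 and 5.91 in PGC, 5.64, 5.24 and 5.29 in GSC, and 5.56, 4.95 and 5.32 in CEF. PGC lay between blastoderm and the overlapping GSC and CEF. It was 3.06-fold higher in blastoderm than in CEF (limma adjusted p = 8.05e-06), 2.83-fold higher than in GSC and 1.76-fold higher than in PGC (adjusted p = 0.00536). NDUFAF2 was higher in blastoderm than in each other group by at least 1.80-fold. NDUFAF5 went the other way, being lower in blastoderm than in each other group by at least 1.74-fold, and NDUFAF1 was higher in PGC than in each other group by at least 1.34-fold.

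COX7A2L, which joins complexes III and IV into supercomplexes in mouse, was lowest in CEF. It read 9.09, 9.01 and 9.12 there, 9.95, 9.92 and 9.53 in GSC, 9.89, 9.90 and 9.86 in PGC, and 10.15, 10.15 and 10.04 in blastoderm. The 3 CEF samples lay below all 9 others, by 1.75-fold against PGC (limma adjusted p = 3.91e-05), 1.66-fold against GSC and 2.06-fold against blastoderm.

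Genes that set 1 group apart were counted where a gene was called the same way in all 3 comparisons of that group and its samples did not overlap any others. In PGC 14 of the 79 were higher in this sense and none lower, against 6.68% and 1.30% of all genes. In blastoderm 3 were higher and 21 lower, against 12.8% and 10.8%. In CEF 1 was higher and 8 lower, against 10.2% and 8.99%. In GSC 1 was higher and none lower, against 4.80% and 2.35%. The 14 of PGC were ATP5J, for which there is a bound alone, and SDHAF4, NDUFS4, NDUFA5, NDUFB5, SDHAF3, NDUFA8, COX7C, COX6A1, NDUFAF1, ATP5PB, UQCRQ, NDUFC2 and NDUFAB1, whose smallest of 3 folds ranged from 2.34 down to 1.25. Their number rested on single arrays: it was 6 without either GSC replicate 2 or 3, 7 without either PGC replicate 1 or 2, and between 11 and 18 without any other array. COX6A1, NDUFA5, NDUFAF1, NDUFB5 and SDHAF4 were in the count under each of these omissions. The 8 lower in CEF became 4 without CEF replicate 2 and 5 without GSC replicate 1, while the 21 lower in blastoderm stayed between 19 and 22. The 1 gene higher in GSC dropped out without GSC replicate 2 or 3 or PGC replicate 1 or 2. Complex I, which makes up 33 of the 79 genes, contributed 10 of the 21 that were lower in blastoderm.

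Lists of other mitochondrial genes were called in both directions. Among 33 assembly factors with symbols outside the rule, 10 (30.3%) were higher in PGC than in blastoderm and 5 (15.2%) lower, beside 26.2% and 23.5% of all genes. Against CEF, 16 (48.5%) were higher in PGC and 2 (6.06%) lower, beside 27.7% and 22.0%. TMEM70, which assembles ATP synthase, was 2.24 higher (log2) in PGC than in CEF, and LRPPRC, which stabilises mitochondrial messenger RNA, 2.03 higher. LRPPRC read 3.06, 4.36 and 4.94 in CEF, where replicate 1 was below background. COX11, a copper chaperone of complex IV, was 1.46 lower (log2 fold -1.46) in PGC than in blastoderm. A list of 29 genes held carriers, outer membrane and import genes, together with HSPD1, HSPE1, PHB, PHB2, IMMT, CHCHD3 and OPA1, which belong to none of these classes. Of the 29, 5 (17.2%) were higher in PGC than in blastoderm and 6 (20.7%) lower, beside 26.2% and 23.5% of all genes. Against CEF, 14 (48.3%) of these 29 were higher in PGC and 5 (17.2%) lower, beside 27.7% and 22.0% of all genes. VDAC1, a pore of the outer membrane, averaged 9.02 ± 0.12 (SD, n = 3) in CEF, 7.82 ± 0.08 in blastoderm, 7.44 ± 0.26 in PGC and 5.81 ± 0.03 in GSC. The related VDAC2 was brighter and had its highest mean in GSC, at 11.44 there, 11.35 in CEF, 10.94 in blastoderm and 10.92 in PGC. VDAC3 averaged 9.56 in CEF, 9.33 in GSC, 9.17 in PGC and 8.63 in blastoderm.

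A list set for regulators of mitochondrial gene expression was mostly highest in blastoderm. It also held POLG, POLG2, C10orf2 and SSBP1, which serve the copying of mitochondrial DNA, and RHOT1, which serves mitochondrial transport. Of the 18 genes measured, 12 had their highest mean in blastoderm (66.7%, against 33.3% of all genes). Among these 12 were POLG2, C10orf2, SSBP1 and PPARGC1B, the last with a mean below background in all 4 groups. In PGC 1 was higher than in blastoderm and 6 were lower, beside 26.2% and 23.5% of all genes. In CEF 1 was higher than in blastoderm and 13 were lower, beside 24.0% and 27.2%. Between PGC and CEF, 7 genes of this list (38.9%) were higher in PGC and 2 (11.1%) lower, beside 27.7% and 22.0%. Of the 65 subunits and cytochrome c, 35 had their lowest mean in blastoderm. In CEF 20 of these 65 (30.8%) were higher than in blastoderm and 10 (15.4%) lower, with a median log2 fold of 0.07. PPRC1, a coactivator of the PGC-1 family (a name unrelated to the germ cells), averaged 9.47 ± 0.11 (SD, n = 3) in blastoderm, 7.54 ± 0.32 in CEF, 7.00 ± 0.34 in PGC and 6.58 ± 0.15 in GSC. TFAM, which packages mitochondrial DNA, averaged 9.22 ± 0.09 in blastoderm, 8.47 ± 0.02 in GSC, 8.06 ± 0.28 in PGC and 7.88 ± 0.03 in CEF. PPARGC1A, the best known coactivator of that family, was 1.79 higher (log2) in PGC than in CEF. It read 6.61, 6.51 and 5.99 in PGC against 4.89, 3.57 and 5.27 in CEF, where replicate 2 was below background.

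Among 18 genes of ubiquinone synthesis and of other electron entry points, 7 (38.9%) were higher in PGC than in blastoderm and 3 (16.7%) lower, beside 26.2% and 23.5% of all genes. GPD2, which feeds electrons from glycerol phosphate into ubiquinone, averaged 6.74 ± 0.28 (SD, n = 3) in PGC, 5.26 ± 0.25 in GSC, 4.70 ± 0.04 in CEF, against 3.71 ± 0.26 in blastoderm. SQRDL, the sulfide oxidising enzyme, was 3.56 higher (log2) in PGC than in CEF, where 1 of 3 arrays was above background. A further list of 14 genes held those that direct pyruvate to or from mitochondria, together with UCP3 and ATPIF1, which do not. Of the 14, 7 were higher in PGC than in blastoderm and 1 was lower, against 26.2% and 23.5% of all genes. LDHA, the lactate dehydrogenase subunit of glycolytic tissues, averaged 11.20 ± 0.03 in CEF, 10.37 ± 0.42 in PGC, 8.73 ± 0.61 in GSC and 8.68 ± 0.17 in blastoderm. PDK4, a kinase that inhibits pyruvate dehydrogenase, was below background on all CEF and blastoderm arrays and at least 3.90-fold higher in PGC than in either (limma adjusted p = 1.89e-07 and 4.28e-06).

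**Figure D5:**
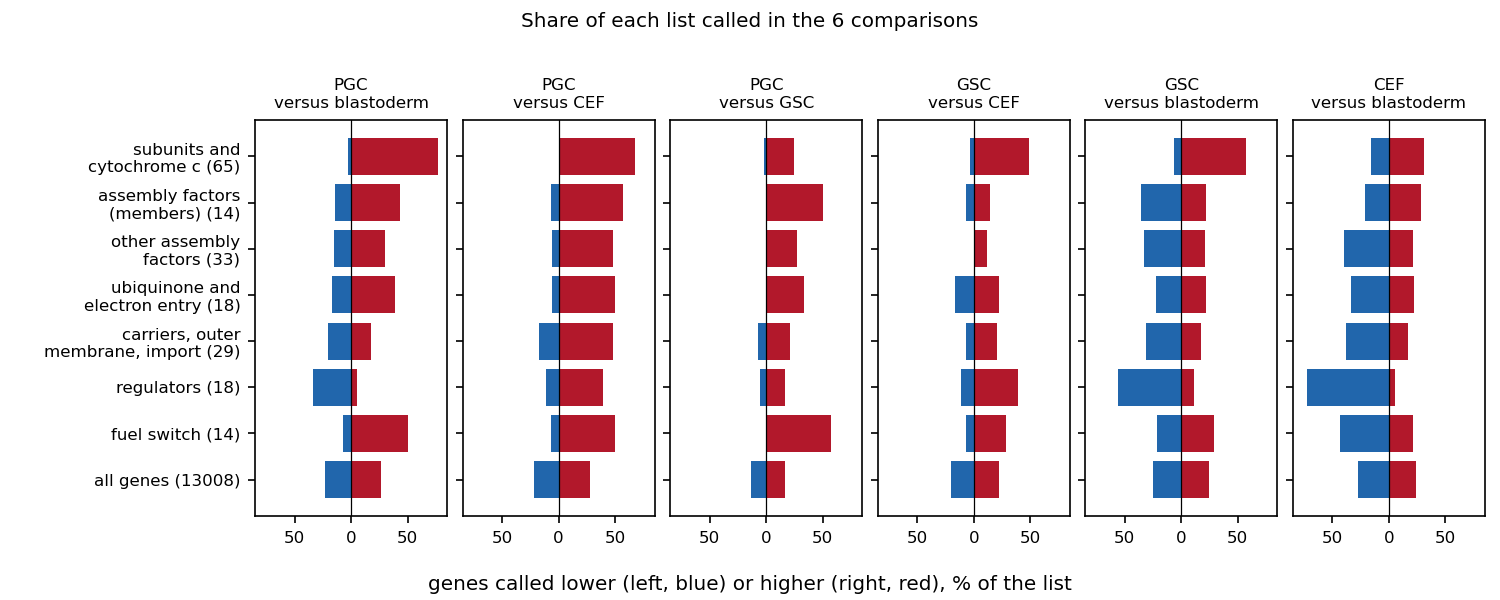
Share of each list called higher (right, red) or lower (left, blue) in the 6 comparisons, in percent of the genes of the list, whose number stands in brackets. Subunits and cytochrome c have the longest red bar against blastoderm and CEF in the 2 leftmost panels, regulators the longest blue bars against blastoderm, and all genes are at the bottom.

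A gene's choice of probe set mattered for some of these results. Of the 79 genes 38 had several probe sets, 143 in all. For COX5A, COX6C, COX7C, NDUFA11, NDUFB3, NDUFB4, NDUFS6, UQCRC2, UQCRFS1 and ATP5G1 another probe set was called in the opposite direction in at least 1 comparison, and these others averaged between 2.09 and 3.71, at or near background. The ratio of 3′ to 5′ signal of the actin and GAPDH controls, a sign of RNA integrity, differed between groups at 0.37 to 0.82 (log2) in blastoderm, 0.02 to 0.67 in CEF, 0.07 to 0.35 in PGC and -0.09 to 0.05 in GSC. Its part in the results was not tested.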

How the data were processed

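The authors deposited 1 table of 38535 probe sets on 12 arrays, 1 column per sample. The deposited values were read as log2 signals (1.02 to 13.18, array medians 3.50 to 3.65) from their range and spike-in steps. MAS5 is named per the submitters' processing notes, with no role stated. The step to log2 is not described in the sources used here, and the deposited scaling was kept. Leaving out 96 manufacturer controls and 746 viral and reporter probe sets left 37693, of which 27166 had 1 symbol in the platform annotation, 177 several and 10350 none. Of the 79 genes, 78 had a gene identifier in the RefSeq table. Groups were taken from the labels, which describe independent replicates. Precision is limited by the number of arrays.

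The tests came from limma 3.58.1 run under R 4.3.3 (lmFit, eBayes with an intensity trend, two-sided, all 12 arrays, Benjamini-Hochberg over 37693 probe sets). Percentages of all genes count 13008 genes by the same choice of probe set. Named genes are the largest called fold per class, comparison and direction, up to 5 per group and direction that set a group apart, and complex II, cytochrome c and isoform genes; others in the text were chosen after their values were seen. The genes and lists were chosen with earlier results of these data known. The fit was tested on simulated data. Alternatives were a filter on low values, offsets before taking logarithms, other scalings, no trend, array weights, a 2-fold minimum, 2 groups only, a replicate block, other probe set rules and each array left out. Deviations of same-numbered samples were correlated between groups. Differently numbered samples were not compared, so this could not exclude pairing. No sequences were read, so promoter motifs were not searched.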

Additional observations from a re-analysis of the deposited data

How the results depend on the processing

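The 7 counts of called genes (60 in PGC versus blastoderm, 53 in PGC versus CEF, 24 in PGC versus GSC, 37 in GSC versus CEF, 49 in GSC versus blastoderm, 37 in CEF versus blastoderm and 71 in the F test) stayed within 1.5 times under the alternatives tried, apart from those named next. Requiring a 2-fold change left 15, 8, 2, 4, 10 and 12 genes in the 6 comparisons in that order, by construction. PGC versus GSC fell to 14 with only those 2 groups fitted, fewer arrays then giving the spread, and rose to 36 with array weights. With each array left out in turn the counts ranged from 53 to 61, 49 to 53, 7 to 28, 26 to 39, 42 to 49, 32 to 39 and 68 to 72. PGC versus GSC is therefore the comparison whose count depends most on single arrays; without GSC replicate 2 it was 9, without GSC replicate 3 it was 7, without PGC replicate 1 it was 11 and without PGC replicate 2 it was 13. Median centring moved the median fold of all genes to -0.11 in GSC versus CEF and -0.13 in GSC versus blastoderm.

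Deviations of same-numbered samples of different groups correlated between -0.14 and 0.18, which cannot show whether samples were paired. A fit with the replicate number as a block called 60, 53, 24, 36, 47, 36 and 71 genes.

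Of 5616 values for named genes under the alternatives, 5266 kept their side of the threshold, 284 lost their call and 61 gained one. The 284 include calls below 2-fold that the 2-fold minimum removed by construction. Counts out of 23 alternatives given above for single genes leave that setting out. A further 5 changed sign and were called in the main fit, the alternative or both. Sign changes without a call in either were not counted apart and are among the 5266. All 5 came from averaging a gene's probe sets, which adds probe sets near background: COX6C in PGC versus CEF (-0.20) and GSC versus CEF (-0.47), COX7C in PGC versus blastoderm (-0.15) and CEF versus blastoderm (-0.57), and NDUFB3 in PGC versus blastoderm (-0.01).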
